A study of Homo sapiens with 27 samples.

Results

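The transcriptome of overconfluent U2OS cells that carried the shRNA MMP2sh1 was compared with that of overconfluent control cells. U2OS is a human osteosarcoma line of mesenchymal origin, and an shRNA is a short hairpin RNA whose processed strand directs the degradation of a matching mRNA. The 6 libraries of this comparison were chosen by their labels, as the 3 replicates of the line MMP2KD_23 and the 3 of the line WT, which carries the pLKO.1 vector, in the OverConfluent state, out of 27 libraries in the series. All 6 share the U2OS background, lentiviral transduction with pLKO.1, puromycin selection and medium with fetal bovine serum. The control vector carried no hairpin against MMP2. Cells were collected 2 days before confluence (day −2, proliferating), at confluence (day 0) and 2 days after it (day +2, overconfluent), and the 21 other libraries are those of days −2 and 0 and of a second hairpin line, MMP2sh2 (MMP2KD_26). Each hairpin is represented by 1 stably transduced line, and whether a line is a pool or a clone is not stated in the sources used here. The study calls the replicates biological, but all 3 come from the same line, so the p-values measure the spread within a line, and an effect of the line cannot be told apart from an effect of the hairpin within this comparison.

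MMP-2, the product of MMP2, is a gelatinase, a zinc-dependent protease that is secreted as a proenzyme and cleaves denatured collagens, collagen IV and other matrix proteins. It is activated at the cell surface by the membrane-bound protease MMP-14 together with the inhibitor TIMP-2. The study is concerned with a second site of action, the nucleus, and with proteolysis of the N-terminal tail of histone H3 there. The comparison asks which mRNAs differ at day +2, when MMP2 expression in these cells is highest, once MMP2 is depleted.

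Poly(A) RNA was sequenced, and the deposited values are raw read counts for 55882 gene symbols. Of these, 20592 had no read in the 6 libraries, and 19294 passed the low-count filter and were tested. Levels are given as CPM, read counts divided by library size in units of 1000000 reads and by the TMM scaling factor, and are not divided by gene length, so they compare libraries and not genes. The libraries held 33778818 to 39739320 counts on genes in the control and 37907001 to 40714835 in MMP2sh1. Mitochondrial genes took 5.49% to 6.37% of these counts in the control and 6.53% to 7.15% in MMP2sh1, so the ranges did not overlap. The share of reads on no annotated gene was 7.53% to 7.93% in the control and 8.06% to 8.52% in MMP2sh1. No library duplicated another: the counts of replicates differed by a chi-square of 5.85 to 13.1 for each degree of freedom. The mesenchymal markers VIM, COL1A1, SPARC, RUNX2, CDH2, CDH11 and FN1 were expressed in all 6 libraries, while COL1A2 stayed at or below 0.435 CPM and TWIST1 had no read. Of 8 epithelial markers, CDH1, KRT19, ESRP1 and GRHL2 stayed near 0, and the summed level of the list was 39.1 to 42.8 CPM in the control and 60.7 to 70.3 CPM in MMP2sh1, mostly through CLDN4, a tight junction claudin, at 23.2, 25.1 and 28.3 against 51.5, 47.3 and 44.3 CPM. Blood markers summed to at most 0.511 CPM. In bulk RNA, fewer cells of a type and less RNA per cell cannot be told apart.

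The targeted gene was checked first. MMP2, on chromosome 16 of GRCh37 from 55423612 to 55540603 on the plus strand, was at 496, 479.9 and 492 CPM in the 3 control libraries and at 97.3, 93.7 and 100.01 CPM in the 3 MMP2sh1 libraries. The groups lay far apart, and MMP2 mRNA stood at 19.8% of the control mean (log2 fold change −2.34, standard error 0.05, edgeR adjusted p = 2.2e-23, edgeR's quasi-likelihood F test, adjusted by Benjamini-Hochberg over the 19294 tested genes, as for every edgeR adjusted p below). The same contrast gave −2.53 at day −2 and −2.47 at day 0, each on its own 6 libraries, while the control level itself was 232 ± 14.2 CPM at day −2, 325 ± 6.97 CPM at day 0 and 489 ± 8.50 CPM at day +2 (SD, n = 3, as for every mean given here). The shRNA acts on the mRNA, and MMP-2 protein was not measured in these files.

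Of 10 tested genes near MMP2 on chromosome 16, 2 were called lower and 0 higher at an adjusted p under 0.05, where 14.8% of all tested genes were called (7.68% higher, 7.11% lower). IRX3, a homeobox factor that lies upstream on chromosome 16 of GRCh37 from 54317216 to 54320699 on the minus strand, was at 33.8, 35.0 and 38.1 CPM in the control libraries and at 25.8, 25.9 and 23.6 CPM in the MMP2sh1 libraries (log2 fold change −0.51, standard error 0.08, edgeR adjusted p = 1.8e-05). LPCAT2, the next gene downstream at 55542984 to 55620578, encodes a lysophospholipid acyltransferase and had a log2 fold change of −0.93 (edgeR adjusted p = 0.02) from a level of 2.29 ± 0.331 CPM. The call of LPCAT2 was lost without control replicate 1 or MMP2sh1 replicate 2, by edgeR on all 27 libraries and by DESeq2 on all 27 libraries.

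Among 14 tested genes whose products activate, inhibit or bind MMP-2, 4 rose and 0 fell, with a median log2 fold change of 0.17 beside −0.002 over all tested genes. ITGB3, which encodes the integrin β3 subunit of αvβ3, a docking receptor of MMP-2, was at 41.4, 37.1 and 36.0 CPM in the control and at 71.4, 74.8 and 77.7 CPM in MMP2sh1. Every MMP2sh1 library exceeded every control library (log2 fold change 0.97, standard error 0.07, edgeR adjusted p = 1.7e-11). MMP14, the membrane-bound activator of proMMP-2, went from 246 ± 9.12 to 291 ± 17.3 CPM (log2 fold change 0.24, standard error 0.05, edgeR adjusted p = 0.002), and FURIN, the convertase that activates MMP-14, from 191 ± 2.699 to 241 ± 8.24 CPM (log2 fold change 0.33, edgeR adjusted p = 2.4e-05). THBS1, a matricellular protein that binds MMP-2, was the other member called, at 0.36 (edgeR adjusted p = 4.2e-04), and its call was lost by DESeq2 on the same libraries. The inhibitors TIMP1, TIMP2 and TIMP3 were not called, with log2 fold changes of 0.07, −0.09 and −0.08.

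The second gelatinase moved the other way from MMP2. MMP9, on chromosome 20 of GRCh37 from 44637547 to 44645200 on the plus strand, was at 18.4, 19.99 and 21.2 CPM in the control libraries and at 70.1, 67.1 and 63.5 CPM in the MMP2sh1 libraries, with no overlap (log2 fold change 1.75, standard error 0.07, edgeR adjusted p = 1.3e-16). Of 5 other matrix metalloproteinases tested, MMP9 was the member called higher, and matrilysin MMP7 (−1.14) and collagenase MMP13 (−0.66) were called lower from levels of 3.02 ± 0.924 and 5.82 ± 0.831 CPM. The count of lower members was 0 without control replicate 3 and 1 without MMP2sh1 replicate 2 and by edgeR or DESeq2 on all 27 libraries. Among 17 tested cathepsins and cystatins, 4 were higher and 4 lower. The lysosomal proteases CTSF and CTSB went from 28.3 ± 1.19 to 19.6 ± 0.606 CPM and from 1867 ± 46.1 to 1629 ± 58.6 CPM (log2 fold changes −0.54 and −0.20, edgeR adjusted p = 1.9e-05 and 0.002). CTSB, on chromosome 8, encodes cathepsin B, another protease studied for cleavage of the H3 tail. CTSZ and the cathepsin inhibitor CSTB rose by 0.28 and 0.28 on the log2 scale. Lower cathepsins numbered 2 without control replicate 3 or MMP2sh1 replicate 3. In MMP2sh2 at day +2, 0 of 16 tested genes of this list were called higher and 0 lower, beside 2.89% and 3.43% of all tested genes. CTSB was thus not called in that line, where MMP2 fell less (given below). The lack of a call is no test of a difference between the hairpins, and no such value is given here for CTSB.

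Across the 19294 genes tested, 2854 (14.8%) differed between MMP2sh1 and control at day +2, 1482 of them higher (7.68%) and 1372 lower (7.11%) in MMP2sh1. Every count of called list members at day +2 is to be read beside these 2 shares. Most differences were small. The median size of the log2 fold change was 0.36 among called genes and 0.16 among all tested genes. A change of over 1.5-fold was seen in 428 higher and 336 lower genes, of over 2-fold in 186 and 132, and of over 4-fold in 42 and 33. The plot of all genes shows these differences against the level of each gene. With each library left out in turn, the count of called genes was between 1928 and 3182. The CPM ranges of 3 and 3 libraries did not overlap in 2995 genes with higher values (15.5%) and in 2768 with lower values (14.3%).

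Further comparisons were fitted to place these values. The same contrast called 2184 of 18878 genes (11.6%) at day −2, with 5.42% higher and 6.14% lower, and 3290 of 19536 (16.8%) at day 0, with 8.26% higher and 8.58% lower. The second hairpin, MMP2sh2, was compared with the same 3 control libraries at day +2 and gave 1222 called genes of 19339 (6.32%, with 2.89% higher and 3.43% lower), and the test of MMP2sh1 directly against MMP2sh2 gave 1527 of 19427 (7.86%), 4.59% higher and 3.27% lower in MMP2sh1. The interaction of line and day, fitted on the 12 libraries of days −2 and +2, asks whether the difference from control was another at day +2 than at day −2. It called 1520 of 20548 genes (7.40%), 928 with a more positive difference at day +2 (4.52%) and 592 with a more negative one (2.88%). These counts rest in part on single libraries. The day −2 count was 1321 without control replicate 1, and the MMP2sh2 count was 761 without control replicate 2, 679 without control replicate 3 and 780 without MMP2sh2 replicate 1. The count between the hairpins was 968 without MMP2sh1 replicate 2, 885 without MMP2sh2 replicate 1 and 984 without MMP2sh2 replicate 2, and the interaction count was 1004 and 934 without control replicates 2 and 3 of day +2.

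Besides MMP2 and the ID genes below, the largest falls among genes of at least 5 CPM in a group were in metabolic enzymes, signalling proteins and the matricellular protein NOV. NOV (also CCN3), a secreted regulator of adhesion, was at 183, 180.3 and 172 CPM in the control libraries and at 40.2, 48.3 and 48.1 CPM in the MMP2sh1 libraries. The highest MMP2sh1 library lay far below the lowest control library (log2 fold change −1.97, standard error 0.07, edgeR adjusted p = 4.7e-19). PCK1, the cytosolic enzyme that commits oxaloacetate to gluconeogenesis, was at 3.23, 6.97 and 7.96 CPM in the control and at 0.0777, 0.537 and 0.0479 CPM in MMP2sh1. Its control libraries differed more than 2-fold among themselves, yet stayed clear of MMP2sh1 (log2 fold change −4.78, standard error 0.42, edgeR adjusted p = 1.3e-09). NCALD, a neuronal calcium sensor, was at 5.67, 6.08 and 5.05 CPM in the control and at 0.647, 1.07 and 0.742 CPM in MMP2sh1 (log2 fold change −2.77, standard error 0.24, edgeR adjusted p = 6.3e-10). C10orf11 went from 17.3 ± 2.29 to 3.96 ± 1.01 CPM and ST8SIA1, the sialyltransferase that makes the ganglioside GD3, from 20.02 ± 0.630 to 5.92 ± 0.730 CPM, with log2 fold changes of −2.13 (edgeR adjusted p = 7.6e-12) and −1.76 (edgeR adjusted p = 2.0e-12). The scavenging chemokine receptor ACKR3 and the adhesion-associated protein KANK4 fell by 1.74 and 1.66 on the log2 scale (edgeR adjusted p = 5.4e-08 and 1.1e-08). In every one of these genes the 3 control libraries lay above the 3 MMP2sh1 libraries.

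Genes of the BMP pathway and its targets held 3 of the 12 largest falls. BMP ligands bind receptor kinases that phosphorylate SMAD1, SMAD5 and SMAD9, and these induce the ID genes, which encode helix-loop-helix proteins that lack a DNA-binding region and sequester basic helix-loop-helix factors. SMAD6 is an induced inhibitor of the same receptors, and noggin (NOG) is a secreted antagonist of the ligands. Of 27 tested members, 9 fell and 3 rose, with a median log2 fold change of −0.14. ID3 was at 149.6, 167 and 191 CPM in the control libraries and at 29.96, 31.7 and 26.2 CPM in the MMP2sh1 libraries. ID1 was at 173, 189.8 and 239 CPM in the control libraries and at 61.0, 62.6 and 53.9 CPM in the MMP2sh1 libraries. ID4 was at 10.3, 12.5 and 13.6 CPM in the control libraries and at 2.67, 3.68 and 3.21 CPM in the MMP2sh1 libraries. In all 3 genes the control libraries were higher in each case, as the rule for the 12 largest falls required. The SD in CPM was wider among control than among MMP2sh1 libraries. The log2 fold changes were −2.53 for ID3 (standard error 0.08, edgeR adjusted p = 6.4e-20), −1.77 for ID1 (standard error 0.08, adjusted p = 1.0e-15, same test) and −1.93 for ID4 (standard error 0.15, adjusted p = 1.2e-10, same test). ID3 lies on chromosome 1 of GRCh37 from 23884417 to 23885992 on the minus strand, ID1 on chromosome 20 of GRCh37 from 30193086 to 30194318 on the plus strand and ID4 on chromosome 6 of GRCh37 from 19837601 to 19842428 on the plus strand. The remaining family member ID2, which was added after its values were seen, was at 22.8, 26.9 and 25.6 against 20.04, 16.6 and 23.2 CPM, with overlapping groups and a log2 fold change of −0.33 (edgeR adjusted p = 0.02).

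The inhibitors of the pathway were split. SMAD6 was at 36.0, 37.3 and 43.97 CPM in the control libraries and at 18.2, 21.3 and 19.9 CPM in the MMP2sh1 libraries. All control libraries exceeded all MMP2sh1 libraries (log2 fold change −0.98, standard error 0.09, edgeR adjusted p = 1.2e-09). NOG, in contrast, was at 66.8, 62.3 and 55.6 CPM in the control and at 115, 112 and 110.1 CPM in MMP2sh1, so that every MMP2sh1 library was the higher one (log2 fold change 0.86, standard error 0.07, edgeR adjusted p = 5.0e-11). The receptor kinase BMPR1B rose from 12.4 ± 1.25 to 23.2 ± 3.32 CPM (log2 fold change 0.90, edgeR adjusted p = 3.4e-07). The ligands tested, BMP2, BMP4, BMP5, BMP6, BMP7, BMP8A and BMP8B, were not called, with log2 fold changes of −0.16 to 0.09. The falls of the ID genes were not present before confluence. At day −2, ID3 was at 99.7 ± 5.32 CPM in the control and 106 ± 1.35 CPM in MMP2sh1, and at day 0 at 167 ± 19.8 and 142 ± 7.78 CPM. The interaction of line and day was −2.62 for ID3 (edgeR adjusted p = 7.8e-17), −1.93 for ID1 (adjusted p = 1.4e-12, same test) and −2.30 for ID4 (adjusted p = 1.5e-09, same test). NOG was lower in MMP2sh1 at day −2, at −0.32, and its interaction was 1.19 (edgeR adjusted p = 6.6e-10). Over the whole list the interaction called 5 of 27 members with a more negative difference at day +2 (2.88% of all genes) and 4 with a more positive one (4.52%).

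**Figure D1:**
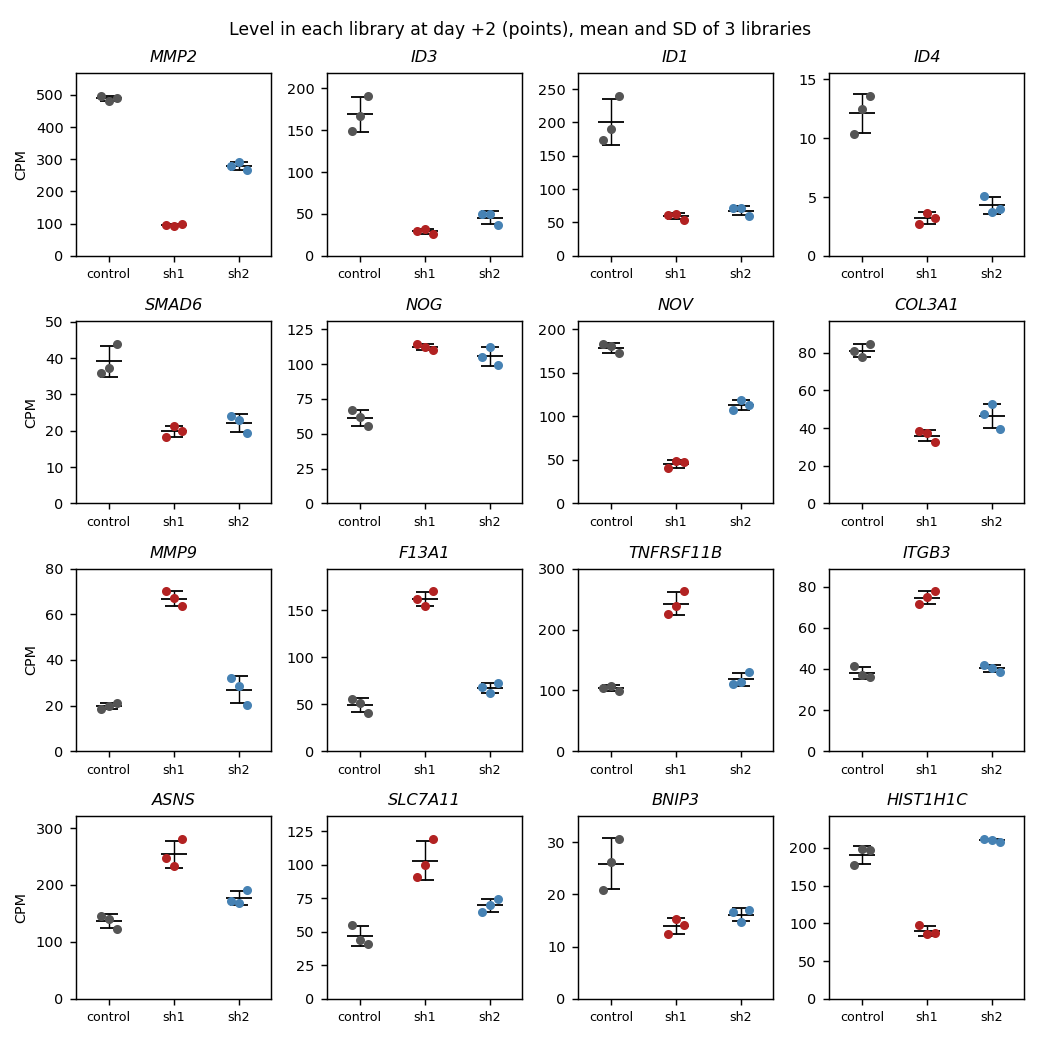
Level in CPM (y axis, from 0) of 16 genes in each of the 3 control, 3 MMP2sh1 (sh1) and 3 MMP2sh2 (sh2) libraries of day +2 (points), with mean and SD as black bars. MMP2, ID3, ID1, ID4, SMAD6, NOV and COL3A1 lie lower in all MMP2sh1 than in all control libraries, NOG, MMP9, F13A1, TNFRSF11B, ITGB3, ASNS and SLC7A11 higher, and HIST1H1C is low in MMP2sh1 alone.

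The largest rises included genes for a protease precursor, an epithelial surface antigen and secreted or structural proteins. PRSS1 was at 2.67, 1.55 and 1.57 CPM in the control libraries and at 11.6, 9.62 and 9.84 CPM in the MMP2sh1 libraries, and this gene for cationic trypsinogen lies on chromosome 7 of GRCh37 from 142457319 to 142460923 on the plus strand (log2 fold change 2.43, standard error 0.18, edgeR adjusted p = 5.4e-11). The nearby pseudogene PRSS3P1 rose as well, from 1.15 ± 0.158 to 5.59 ± 0.823 CPM (log2 fold change 2.28, edgeR adjusted p = 6.1e-09). Trypsinogen copies are near identical in sequence, so the split of reads between PRSS1 and PRSS3P1 is uncertain. GPA33 was at 1.36, 1.64 and 1.79 CPM in the control libraries and at 9.17, 8.08 and 8.76 CPM in the MMP2sh1 libraries. GPA33 is a membrane antigen of intestinal epithelium, and its groups did not overlap (log2 fold change 2.43, standard error 0.18, edgeR adjusted p = 2.3e-11), while epithelial markers differed as given above and their part in this rise was not tested. F13A1 was at 55.6, 51.6 and 40.9 CPM in the control libraries and at 162, 155 and 170.3 CPM in the MMP2sh1 libraries. This subunit of the transglutaminase factor XIII was more than 2 times as high in the lowest MMP2sh1 library as in the highest control library (log2 fold change 1.72, standard error 0.08, edgeR adjusted p = 5.5e-16). MYH16 went from 11.2 ± 0.932 to 42.6 ± 2.97 CPM (log2 fold change 1.93, standard error 0.09, edgeR adjusted p = 8.2e-16). CPXM2, a carboxypeptidase-like secreted protein, rose by 2.03, the secretory chaperone SCG5 by 1.90 and the proton pump subunit ATP6V0A4 by 1.75 on the log2 scale, from control levels of 1.65 ± 0.509, 1.58 ± 0.387 and 2.39 ± 0.362 CPM (edgeR adjusted p = 1.5e-08, 8.9e-08 and 6.7e-09). SH3TC2 (1.57) and the G protein-coupled receptor GPR132 (1.55) completed the 12 largest rises together with MMP9 and LAMA3. Separation of the 3 MMP2sh1 from the 3 control libraries was a condition for these 12 genes, so it is no result for them.

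In absolute CPM, the largest falls besides MMP2 were in abundantly expressed genes, and that of FTL exceeded that of MMP2. The iron storage subunit FTL went from 1345 ± 104 to 944 ± 28.8 CPM, the glycolytic enzyme PKM from 2865 ± 113 to 2515 ± 12.4 CPM, the linker histone H1F0 from 1419 ± 10.05 to 1069 ± 97.7 CPM and the chaperone HSP90AB1 from 1975 ± 63.1 to 1642 ± 50.3 CPM. Their log2 fold changes were −0.51, −0.19, −0.41 and −0.27 (edgeR adjusted p = 1.2e-08, 0.002, 8.4e-07 and 6.0e-05). The largest absolute rises were in mitochondrially encoded RNAs and are described with that group.

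Genes of the extracellular matrix, the substrate of MMP-2, moved in both directions. COL3A1 was at 80.7, 77.7 and 84.8 CPM in the control libraries and at 38.2, 37.4 and 32.4 CPM in the MMP2sh1 libraries. This fibrillar collagen was lower in every MMP2sh1 library (log2 fold change −1.17, standard error 0.07, edgeR adjusted p = 3.3e-13), and it was lower already at day −2 (−1.79) and day 0 (−1.66). Of 10 fibrillar collagens tested, COL3A1 was the one called lower, and COL1A1 and COL11A1 were called higher by 0.26 and 0.27 on the log2 scale. The fibrillar collagens called higher numbered 1 without control replicate 2 or control replicate 3 and by DESeq2 on the same libraries, and those called lower 2 with median-of-ratios scaling, with no filter on low counts, with at least 10 counts required in every library and by DESeq2 on the same libraries and 3 without MMP2sh1 replicate 1. Among 19 genes of collagen processing and crosslinking, 6 rose and 3 fell. The lysyl oxidase LOXL4 rose from 164 ± 9.76 to 216 ± 9.19 CPM, while the prolyl hydroxylase P4HA1 fell from 66.0 ± 7.60 to 50.2 ± 1.06 CPM and the lysyl hydroxylase PLOD2 from 134 ± 2.87 to 109 ± 3.59 CPM (log2 fold changes 0.39, −0.40 and −0.30; edgeR adjusted p = 6.3e-06, 1.7e-04 and 2.3e-04).

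Basement membrane genes moved in both directions, with 9 of 24 tested members called higher and 4 lower, and a median log2 fold change of 0.17 that was 0.02 without MMP2sh1 replicate 2. The laminin chain genes LAMA3 and LAMB3 were among the higher ones. LAMA3 was at 4.91, 3.09 and 3.17 CPM in the control libraries and at 12.2, 13.1 and 11.01 CPM in the MMP2sh1 libraries. LAMB3 went from 129.9 ± 2.58 to 166 ± 5.19 CPM. No control library reached the level of an MMP2sh1 library in either gene, and the log2 fold changes were 1.71 (edgeR adjusted p = 2.9e-09) and 0.35 (edgeR adjusted p = 2.0e-05) for LAMA3 and LAMB3. SPARC, a collagen-binding glycoprotein, rose from 1552 ± 10.6 to 2050.4 ± 25.9 CPM (log2 fold change 0.40, edgeR adjusted p = 5.5e-08), and nidogen NID1 fell from 236 ± 10.9 to 191 ± 11.4 CPM (log2 fold change −0.31, edgeR adjusted p = 1.7e-04). The other lower members were LAMA4, LAMB2 and COL15A1, and the count of lower members was 2 without control replicate 1 or MMP2sh1 replicate 3.

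Of 29 matrix glycoproteins and proteoglycans, 7 rose and 4 fell. CTGF was at 138, 137 and 123 CPM in the control libraries and at 216, 216 and 213 CPM in the MMP2sh1 libraries. TNC was at 139, 124 and 114 CPM in the control libraries and at 222, 222 and 193 CPM in the MMP2sh1 libraries. TGFBI was at 40.4, 44.8 and 49.4 CPM in the control libraries and at 75.8, 70.4 and 75.7 CPM in the MMP2sh1 libraries. Each of these adhesion-modulating proteins, connective tissue growth factor, tenascin C and TGF-β-induced protein, was higher in all 3 MMP2sh1 libraries, with log2 fold changes of 0.69 (edgeR adjusted p = 2.1e-10), 0.76 (edgeR adjusted p = 1.0e-09) and 0.72 (edgeR adjusted p = 8.1e-09). The microfibril protein FBN2 fell from 146 ± 21.9 to 99.1 ± 10.3 CPM (log2 fold change −0.56, edgeR adjusted p = 5.6e-06). The higher members numbered 4 without control replicate 2, the lower members 2 without control replicate 2 or MMP2sh1 replicate 3, and the median of the list (0.04) changed sign without control replicate 2 or control replicate 3. Integrins, the receptors that link cells to this matrix, rose in 8 of 17 tested genes and fell in 0, besides ITGB3 above, with a median log2 fold change of 0.17. ITGA2, the α subunit of the collagen receptor, went from 167 ± 10.4 to 252 ± 5.49 CPM, ITGB8, an activator of latent TGF-β, from 52.9 ± 3.40 to 82.6 ± 10.2 CPM and the laminin receptor subunit ITGA3 from 879 ± 13.8 to 1101 ± 47.3 CPM. Their log2 fold changes were 0.59 (edgeR adjusted p = 3.5e-09), 0.64 (edgeR adjusted p = 2.6e-07) and 0.32 (edgeR adjusted p = 8.6e-06). The count of higher integrins was 5 without control replicate 2 or MMP2sh1 replicate 2, and the count of lower ones 1 without MMP2sh1 replicate 2.

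Pathways that respond to adhesion and growth factors followed the mixed pattern. The YAP targets and Hippo pathway genes had 9 higher and 3 lower of 24, and besides CTGF the phosphatase PTPN14 rose from 149.6 ± 17.6 to 228 ± 12.98 CPM and the receptor kinase AXL from 303 ± 5.14 to 389.8 ± 13.2 CPM (log2 fold changes 0.61 and 0.36, edgeR adjusted p = 6.8e-08 and 4.0e-06). In the TGF-β pathway, 7 of 20 genes rose and 4 fell. The activin subunit INHBA rose from 36.4 ± 2.44 to 57.6 ± 3.37 CPM and the latent TGF-β binding protein LTBP2 from 398 ± 18.9 to 556 ± 29.9 CPM, while the transducer SMAD3 fell from 89.0 ± 5.24 to 65.1 ± 4.70 CPM (log2 fold changes 0.66, 0.48 and −0.45; edgeR adjusted p = 5.2e-08, 7.3e-08 and 7.7e-06). The count of lower TGF-β pathway genes was 2 without control replicate 3. Of 26 genes of SRF and actin contractility, 8 rose and 2 fell. Myosin light chain kinase MYLK and vinculin VCL, a focal adhesion protein, went from 66.9 ± 4.22 to 101 ± 1.75 CPM and from 239 ± 4.64 to 319 ± 11.8 CPM (log2 fold changes 0.59 and 0.42, edgeR adjusted p = 2.8e-08 and 5.9e-07). The higher members numbered 4 without control replicate 2 and 5 without control replicate 3 or MMP2sh1 replicate 2 and with the replicate number as a block, and the lower members 1 without control replicate 2, control replicate 3, MMP2sh1 replicate 1 or MMP2sh1 replicate 2 and with the replicate number as a block.

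Secreted regulators of bone and growth showed single large changes. TNFRSF11B was at 104, 107 and 98.1 CPM in the control libraries and at 225, 239 and 263 CPM in the MMP2sh1 libraries. Osteoprotegerin, the decoy receptor for RANKL that this gene encodes, was thus more than 2 times as high in each MMP2sh1 library as in any control library (log2 fold change 1.23, standard error 0.06, edgeR adjusted p = 4.1e-15). Of 16 tested osteoblast lineage genes, 4 were higher and 1 lower, the latter SOX2 at −0.32, whose call was lost by edgeR on all 27 libraries and by DESeq2 on all 27 libraries, and 2 were lower without MMP2sh1 replicate 1. RUNX2, the master factor of the lineage, was not called (−0.13). In the IGF axis, 3 of 15 genes were higher and 5 lower. The ligand IGF2 fell from 38.7 ± 2.75 to 26.6 ± 2.16 CPM and the binding protein IGFBP4 from 158 ± 10.5 to 111 ± 2.19 CPM, while the binding protein IGFBP7 rose from 201 ± 9.09 to 249.6 ± 13.8 CPM (log2 fold changes −0.54, −0.52 and 0.31, edgeR adjusted p = 1.0e-05, 1.1e-07 and 1.2e-04). The WNT pathway had 5 higher and 5 lower genes of 38, beside 7.68% higher and 7.11% lower of all tested genes. Its antagonists SFRP1 and NOTUM fell from 79.0 ± 0.963 to 42.0 ± 0.461 CPM and from 23.4 ± 4.13 to 10.6 ± 0.235 CPM, as did the receptor FZD4 from 20.6 ± 0.563 to 12.8 ± 0.779 CPM (log2 fold changes −0.91, −1.14 and −0.69, edgeR adjusted p = 7.0e-12, 5.4e-09 and 3.4e-06). The ligands WNT11 (0.96), WNT9A (1.01) and WNT7A (1.07) were called higher from levels of 2.999 ± 0.193, 1.70 ± 0.187 and 1.49 ± 0.520 CPM, and the call of WNT7A was lost without control replicate 3. The higher WNT pathway genes numbered 2 without control replicate 3 and 3 without control replicate 2 or MMP2sh1 replicate 2 and with the replicate number as a block, and the lower ones 3 without control replicate 1, control replicate 2, control replicate 3, MMP2sh1 replicate 1 or MMP2sh1 replicate 2, with the replicate number as a block and by DESeq2 on the same libraries.

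**Figure D2:**
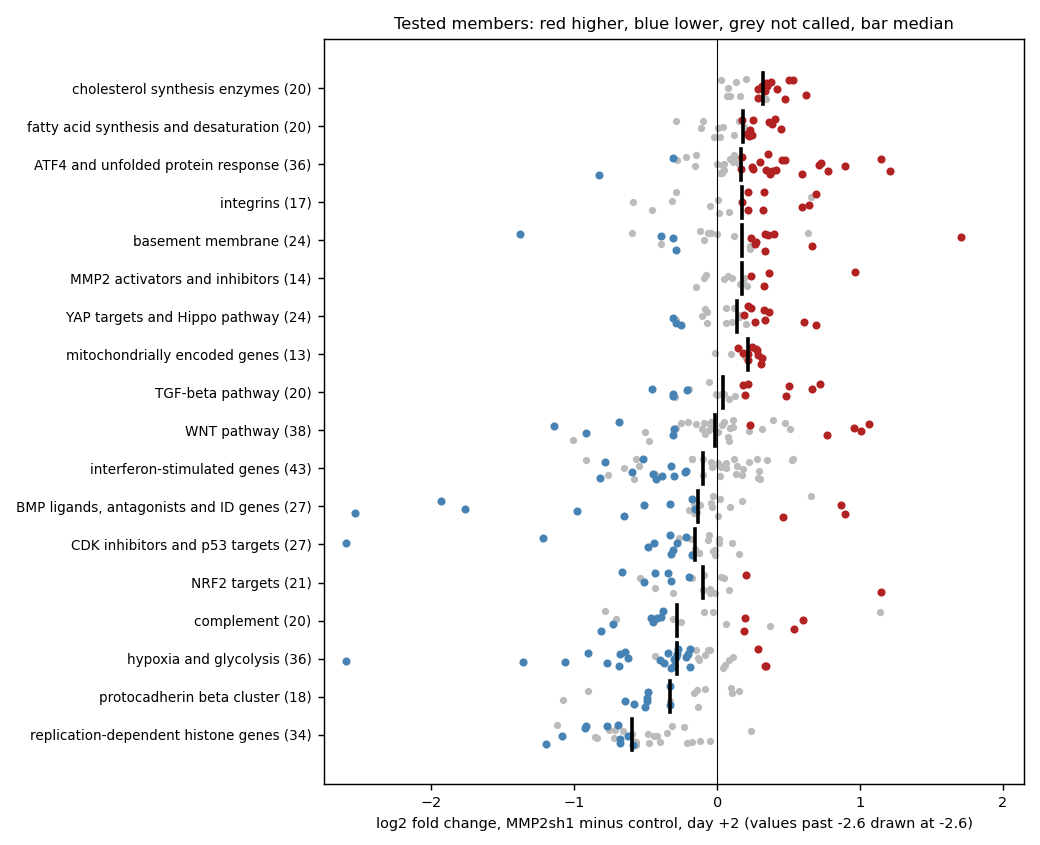
Log2 fold change of each tested member (points) of 18 gene lists, MMP2sh1 minus control at day +2, with the number of tested members in brackets and a black bar at the list median. Red points were called higher and blue points lower at an adjusted p under 0.05. Cholesterol synthesis enzymes lie to the right, and hypoxia genes, protocadherin beta genes and histone genes lie to the left, with CA9 and CDKN2B beyond the plotted range and drawn at its left limit.

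Most genes of the hypoxia response and glycolysis were lower in MMP2sh1. At low oxygen the HIF factors escape hydroxylation by the EGLN enzymes and bind promoters at sites with the core letters ACGTG or GCGTG, and their targets raise glycolysis and lower mitochondrial oxygen use. Of 36 tested members, 22 fell and 3 rose (PFKP, VEGFA and SLC16A3), with a median log2 fold change of −0.28 beside −0.002 over all tested genes. In the alternatives the count of lower members was 19 to 25. BNIP3 was at 20.8, 26.3 and 30.6 CPM in the control libraries and at 12.4, 15.3 and 14.03 CPM in the MMP2sh1 libraries. ENO2 was at 147, 165 and 190.5 CPM in the control libraries and at 113, 113 and 101 CPM in the MMP2sh1 libraries. HK2 was at 30.5, 42.7 and 46.8 CPM in the control libraries and at 24.7, 24.2 and 21.8 CPM in the MMP2sh1 libraries. BNIP3 is a mitochondrial receptor for autophagy, ENO2 a glycolytic enolase and HK2 the hexokinase that starts glycolysis. In all 3 genes the groups were apart, and control replicate 1 was the lowest control library in each, nearest to the MMP2sh1 range in HK2. The log2 fold changes were −0.90 (edgeR adjusted p = 5.9e-07) for BNIP3, −0.63 (edgeR adjusted p = 1.1e-07) for ENO2 and −0.77 (edgeR adjusted p = 2.1e-06) for HK2. The bifunctional regulator PFKFB4 fell from 36.4 ± 6.38 to 22.7 ± 1.07 CPM, the carbonic anhydrase CA12 from 19.5 ± 2.25 to 12.1 ± 0.359 CPM and the peptide hormone ADM from 8.02 ± 1.29 to 3.85 ± 0.424 CPM (log2 fold changes −0.68, −0.69 and −1.06; edgeR adjusted p = 4.2e-06, 1.0e-05 and 1.5e-05).

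On the earlier days the calls leaned the other way. At day −2, 4 of 35 genes were higher and 1 lower (5.42% and 6.14% of all genes), with a median of 0.08, and at day 0, 10 of 35 were higher and 4 lower (8.26% and 8.58%), with a median of 0.05. In the list, 19 genes were called with a more negative difference at day +2 in the interaction, where 2.88% of all tested genes were, against 1 with a more positive one. In the control, BNIP3 went from 43.8 ± 3.17 CPM at day −2 to 31.1 ± 2.23 at day 0 and 25.9 ± 4.89 at day +2, and in MMP2sh1 from 46.2 ± 5.86 to 33.3 ± 1.03 and 13.9 ± 1.47 CPM. Its interaction was −0.97 (edgeR adjusted p = 7.4e-05), and that of HK2 −0.90 (edgeR adjusted p = 1.1e-04).

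The promoters of BNIP3 and ENO2 are shown because both genes were among the most clearly lower members and hold the HIF core letters near the start site. Windows of 300 bases, 250 before to 50 after the annotated start, were taken from RefSeq on GRCh38.p14, and ACGTG was searched on both strands (CACGTG holds it on both, overlapping). The other core, GCGTG, was not searched, marked or counted. The windows are BNIP3 at chr10:131981874-131982173 on the minus strand and ENO2 at chr12:6914330-6914629 on the plus strand, written 5′ to 3′ along the gene, with ACGTG in capitals on either strand.
 BNIP3: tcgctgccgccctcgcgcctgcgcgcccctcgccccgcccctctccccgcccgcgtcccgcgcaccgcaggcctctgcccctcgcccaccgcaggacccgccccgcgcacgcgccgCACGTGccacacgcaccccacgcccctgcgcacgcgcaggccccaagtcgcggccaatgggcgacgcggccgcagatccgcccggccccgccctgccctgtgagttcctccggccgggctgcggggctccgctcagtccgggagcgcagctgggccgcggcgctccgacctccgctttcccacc
 ENO2: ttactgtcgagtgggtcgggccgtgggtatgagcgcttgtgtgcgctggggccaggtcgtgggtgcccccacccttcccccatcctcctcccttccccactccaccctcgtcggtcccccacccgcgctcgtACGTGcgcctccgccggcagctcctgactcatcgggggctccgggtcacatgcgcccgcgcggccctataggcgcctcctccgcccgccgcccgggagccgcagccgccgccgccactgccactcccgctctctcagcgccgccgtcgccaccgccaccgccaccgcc
 ACGTG was present in the window of 14 of the 20 lower members that had one, and in 6790 of 27305 genes overall (24.9%). SLC2A3 and BNIP3L had no window. A match is a description of the letters and not a measured binding site. The list was chosen for genes of hypoxia and glycolysis, and matches were not counted in its members that were not lower. The share beside that of all genes is therefore no test of the fall.

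Many genes of the amino acid and unfolded protein responses were higher in MMP2sh1. ATF4 is translated when eIF2α is phosphorylated, and it induces enzymes and transporters for amino acids through sites that combine CEBP and ATF half-sites. Of 36 tested members, 19 rose and 2 fell (DDIT4 and CEBPB), with a median log2 fold change of 0.17. ASNS was at 145, 141 and 123 CPM in the control libraries and at 247, 234 and 281 CPM in the MMP2sh1 libraries. SLC7A11 was at 54.9, 43.9 and 40.8 CPM in the control libraries and at 90.5, 99.6 and 119 CPM in the MMP2sh1 libraries. CHAC1 was at 7.12, 7.06 and 5.59 CPM in the control libraries and at 15.5, 12.8 and 17.5 CPM in the MMP2sh1 libraries. ASNS makes asparagine, SLC7A11 imports cystine and CHAC1 degrades glutathione. All MMP2sh1 libraries were above all control libraries in these genes, with log2 fold changes of 0.89 (edgeR adjusted p = 3.0e-11), 1.15 (edgeR adjusted p = 1.1e-10) and 1.21 (edgeR adjusted p = 5.0e-08). The large neutral amino acid transporter SLC7A5 rose from 311 ± 20.9 to 511 ± 17.4 CPM and the serine synthesis enzyme PSAT1 from 47.7 ± 5.77 to 79.1 ± 6.11 CPM (log2 fold changes 0.72 and 0.73, edgeR adjusted p = 5.0e-11 and 3.1e-08). DDIT4, an inhibitor of mTORC1, fell from 76.2 ± 8.79 to 43.2 ± 1.53 CPM (log2 fold change −0.82, edgeR adjusted p = 1.3e-09). ATF4 mRNA itself differed by 0.17 on the log2 scale, and its call was lost without control replicate 1, control replicate 2, control replicate 3, MMP2sh1 replicate 1 or MMP2sh1 replicate 3 and with the replicate number as a block.

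At day −2 the median of the list was −0.01, and the interaction called 14 members with a more positive difference at day +2 (4.52% of all genes) and 1 with a more negative one. The interaction of SLC7A11 was 1.67 (edgeR adjusted p = 2.2e-10), since it was lower in MMP2sh1 at day −2 (−0.52) and higher at day +2. The promoters of ASNS and CHAC1 are printed because these genes carry the composite letters TGATGNAA, searched on both strands in the same RefSeq windows. ASNS, at chr7:97872359-97872658 on the minus strand, is 1 of 2 windows of that gene, and CHAC1 lies at chr15:40953221-40953520 on the plus strand, where the match is on the opposite strand.
 ASNS: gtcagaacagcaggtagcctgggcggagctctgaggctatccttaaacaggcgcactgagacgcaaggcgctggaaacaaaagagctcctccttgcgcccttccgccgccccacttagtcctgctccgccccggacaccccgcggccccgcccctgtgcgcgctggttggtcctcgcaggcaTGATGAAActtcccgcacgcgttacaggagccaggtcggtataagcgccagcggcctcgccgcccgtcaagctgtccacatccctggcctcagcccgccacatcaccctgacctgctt
 CHAC1: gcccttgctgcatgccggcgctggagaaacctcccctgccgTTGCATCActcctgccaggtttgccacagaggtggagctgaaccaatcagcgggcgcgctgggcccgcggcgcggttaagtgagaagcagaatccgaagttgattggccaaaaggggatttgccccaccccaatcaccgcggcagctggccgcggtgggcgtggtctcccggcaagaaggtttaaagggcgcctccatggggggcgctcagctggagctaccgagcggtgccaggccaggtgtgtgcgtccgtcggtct
 The letters were present in 5 of the 15 higher members with a window (CHAC1, ASNS, SLC3A2, CEBPG and HERPUD1), and in 1217 of 27305 genes overall (4.46%). PSPH, SHMT2, SLC7A11 and NUPR1 had no window. This list was chosen for genes of the ATF4 and unfolded protein responses, and matches were not counted in its members that were not higher. The shares are therefore no test of the rise.

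Of 20 cholesterol synthesis enzymes, 12 were called higher, 0 lower and 8 neither, with a median log2 fold change of 0.32. These enzymes and INSIG1 are targets of SREBP-2, which is released when sterols in the endoplasmic reticulum are low. DHCR7 was at 75.2, 74.6 and 70.6 CPM in the control libraries and at 114, 117 and 109 CPM in the MMP2sh1 libraries. SQLE was at 83.0, 91.7 and 74.8 CPM in the control libraries and at 112, 115 and 119 CPM in the MMP2sh1 libraries. The last step of synthesis (DHCR7) and the squalene epoxidase step (SQLE) were each higher in every MMP2sh1 library, with log2 fold changes of 0.62 (edgeR adjusted p = 4.6e-09) and 0.47 (edgeR adjusted p = 3.6e-06). MSMO1, HMGCS1 and FDFT1 rose by 0.53, 0.42 and 0.35 on the log2 scale. INSIG1, the sterol sensor that retains SREBP, rose from 23.1 ± 0.893 to 35.1 ± 1.54 CPM (log2 fold change 0.60, edgeR adjusted p = 1.3e-06), whereas the cholesterol exporter ABCG1 fell from 59.8 ± 2.57 to 36.3 ± 0.629 CPM (log2 fold change −0.72, edgeR adjusted p = 2.9e-09) and the lysosomal sterol carrier NPC2 from 495 ± 24.7 to 392 ± 7.87 CPM (log2 fold change −0.34, edgeR adjusted p = 1.1e-05). Sterol regulation, uptake and efflux genes as a list were split, 5 higher and 5 lower of 19, and the lower ones numbered 3 without control replicate 1, control replicate 2, control replicate 3, MMP2sh1 replicate 1 or MMP2sh1 replicate 2, with the replicate number as a block and by edgeR or DESeq2 on all 27 libraries. Fatty acid synthesis and desaturation genes had 10 of 20 higher and 0 lower, with a median of 0.18. The desaturases SCD and FADS2 rose from 191 ± 10.8 to 254 ± 5.93 CPM and from 251 ± 4.20 to 328 ± 7.99 CPM, and acetyl-CoA carboxylase ACACA from 103 ± 4.66 to 133 ± 5.78 CPM (log2 fold changes 0.40, 0.38 and 0.36, edgeR adjusted p = 2.4e-06, 1.6e-06 and 3.3e-05). The cholesterol enzymes were called higher at day 0 as well (12 of 20, where 8.26% of all genes were, median 0.25), and in 5 of 20 at day −2 (5.42% of all genes, median 0.10).

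Targets of NRF2, the factor of the oxidative stress response, and iron genes leaned lower, with 6 of 21 lower and 2 higher (SLC7A11 and ABCC3). Heme oxygenase HMOX1 fell from 67.9 ± 6.13 to 42.8 ± 3.42 CPM and ferritin heavy chain FTH1 from 732 ± 57.2 to 586 ± 64.3 CPM (log2 fold changes −0.67 and −0.32, edgeR adjusted p = 6.6e-08 and 3.2e-04), beside FTL above. The higher NRF2 targets numbered 1 without control replicate 2, control replicate 3, MMP2sh1 replicate 1 or MMP2sh1 replicate 2, with no filter on low counts, with the replicate number as a block and by edgeR or DESeq2 on all 27 libraries. Of 4 metallothionein and zinc exporter genes tested, MT1E was called, at −0.46 (edgeR adjusted p = 1.2e-04), and 2 without MMP2sh1 replicate 1 or MMP2sh1 replicate 2 were called lower.

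Interferon-stimulated genes fell in 11 of 43 tested members and rose in 0, with a median log2 fold change of −0.10. IFIT1 was at 26.2, 24.6 and 25.8 CPM in the control libraries and at 12.4, 14.4 and 16.5 CPM in the MMP2sh1 libraries. All MMP2sh1 libraries were lower (log2 fold change −0.82, standard error 0.10, edgeR adjusted p = 3.1e-07). IFIT3, which like IFIT1 binds foreign RNA or supports that binding, went from 12.998 ± 1.40 to 7.56 ± 0.694 CPM, the ubiquitin-like ISG15 from 21.3 ± 2.65 to 14.9 ± 1.98 CPM and the membrane restriction factor IFITM3 from 139 ± 8.01 to 107 ± 8.89 CPM (log2 fold changes −0.78, −0.52 and −0.38, edgeR adjusted p = 2.2e-05, 6.4e-04 and 4.5e-05). The median was −0.05 and −0.06 without control replicate 2 or 3 and −0.16 without MMP2sh1 replicate 2. The count of lower members was 6 without MMP2sh1 replicate 2, and that of higher members 1 without control replicate 2 or control replicate 3 and with at least 10 counts required in every library. Complement genes were lower in 7 of 20 and higher in 4 (median −0.28). The protease inhibitor A2M fell from 212 ± 11.99 to 163 ± 10.95 CPM and the complement factor CFI from 31.8 ± 0.983 to 19.2 ± 0.897 CPM, while CD46, a membrane cofactor that protects cells from complement, rose from 212 ± 12.9 to 322 ± 13.6 CPM (log2 fold changes −0.38, −0.73 and 0.60, edgeR adjusted p = 1.9e-05, 8.6e-08 and 2.7e-09). The higher complement genes numbered 1 without control replicate 1 or MMP2sh1 replicate 3 and 2 without control replicate 2 or MMP2sh1 replicate 2 and with the replicate number as a block. HLA and antigen presentation genes were split, 4 higher and 4 lower of 23, with HLA-DPA1, a class II chain, rising from 1.60 ± 0.729 to 4.19 ± 0.614 CPM (log2 fold change 1.40, edgeR adjusted p = 2.1e-04). The higher ones numbered 1 without control replicate 2 and 2 without control replicate 3, MMP2sh1 replicate 2 or MMP2sh1 replicate 3, with the replicate number as a block and by edgeR or DESeq2 on all 27 libraries, and the lower ones 0 without MMP2sh1 replicate 2, 1 without control replicate 2, control replicate 3 or MMP2sh1 replicate 3 and with the replicate number as a block and 8 without MMP2sh1 replicate 1.

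Chemokine and cytokine genes had 2 higher and 5 lower of 27, beside 7.68% higher and 7.11% lower of all tested genes. CCL2 was at 24.4, 23.7 and 17.8 CPM in the control libraries and at 44.6, 43.8 and 41.3 CPM in the MMP2sh1 libraries. CSF1 was at 61.1, 64.9 and 61.2 CPM in the control libraries and at 39.4, 35.5 and 33.9 CPM in the MMP2sh1 libraries. The monocyte chemoattractant was thus higher and the macrophage growth factor lower in all MMP2sh1 libraries, with log2 fold changes of 0.98 (edgeR adjusted p = 3.3e-09) and −0.79 (edgeR adjusted p = 1.2e-09). NFKBIA, the inhibitor of NF-κB that NF-κB itself induces, fell from 34.3 ± 1.95 to 23.3 ± 1.53 CPM (log2 fold change −0.56, edgeR adjusted p = 5.7e-06). Among 24 immediate early and AP-1 genes, 3 rose and 5 fell, beside the same shares of all tested genes. PHLDA1 went from 358 ± 8.74 to 257 ± 15.01 CPM and EGR1 from 143 ± 5.32 to 186 ± 7.68 CPM (log2 fold changes −0.48 and 0.38, edgeR adjusted p = 8.6e-08 and 8.2e-06). The higher immediate early and AP-1 genes numbered 1 without control replicate 3 or MMP2sh1 replicate 3, and the lower ones 3 without control replicate 2.

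Of 27 CDK inhibitors and p53 targets, 10 fell and 0 rose, with a median of −0.16, and 1 rose without MMP2sh1 replicate 1. GDF15 was at 23.9, 28.4 and 26.02 CPM in the control libraries and at 10.5, 12.7 and 10.6 CPM in the MMP2sh1 libraries. This stress-induced cytokine was lower in every MMP2sh1 library (log2 fold change −1.22, standard error 0.10, edgeR adjusted p = 2.7e-10). The CDK inhibitor CDKN1B (p27) fell from 109 ± 8.97 to 89.9 ± 2.37 CPM and the apoptosis mediator BBC3 (PUMA) from 27.5 ± 0.761 to 19.7 ± 2.35 CPM (log2 fold changes −0.28 and −0.48, edgeR adjusted p = 0.002 and 2.3e-04). The members CDKN1A and MDM2 were not called, at −0.15 and −0.01. Among genes of the cell cycle machinery, DNA replication genes had 1 higher and 6 lower of 37, and mitosis genes 0 higher and 4 lower of 30, beside 7.68% higher and 7.11% lower of all tested genes, with medians of 0.01 and −0.05. RFC5, a clamp loader subunit, fell from 47.0 ± 1.47 to 28.9 ± 2.32 CPM, and RRM2, a ribonucleotide reductase subunit, from 284 ± 6.07 to 236 ± 10.2 CPM (log2 fold changes −0.71 and −0.27, edgeR adjusted p = 2.6e-08 and 3.3e-04), whereas the helicase subunit MCM6 rose from 171 ± 2.05 to 205 ± 10.99 CPM (log2 fold change 0.26, edgeR adjusted p = 0.001). The proliferation marker MKI67 was not called (0.11). The replication genes called higher numbered 2 without MMP2sh1 replicate 1 and by DESeq2 on all 27 libraries and those called lower 2 without MMP2sh1 replicate 2 and 3 without control replicate 2 and with the replicate number as a block, and the mitosis genes called higher numbered 1 without control replicate 1 and those called lower 1 without control replicate 2 or control replicate 3. The median of the replication list changed sign in 3 alternatives.

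Histone genes that passed the test were lower in MMP2sh1. Most mRNAs of replication-dependent histone genes end in a stem-loop without a poly(A) tail, so that poly(A) libraries report the polyadenylated transcripts of these genes. Of 34 tested members, 10 fell and 0 rose, with a median log2 fold change of −0.59, and the summed level of the list was 608 to 669 CPM in the control and 383 to 399.9 CPM in MMP2sh1. HIST1H1C was at 177, 199 and 197 CPM in the control libraries and at 97.8, 85.4 and 87.1 CPM in the MMP2sh1 libraries. HIST1H2BK was at 181, 201 and 203 CPM in the control libraries and at 132, 130.4 and 127 CPM in the MMP2sh1 libraries. HIST1H2AC was at 50.8, 54.6 and 52.7 CPM in the control libraries and at 33.6, 32.7 and 32.8 CPM in the MMP2sh1 libraries. These genes for a linker histone, an H2B and an H2A were lower in all MMP2sh1 libraries, with log2 fold changes of −1.09 (edgeR adjusted p = 1.4e-13), −0.59 (edgeR adjusted p = 5.4e-09) and −0.68 (edgeR adjusted p = 1.3e-08). At day −2 the same 3 genes were higher in MMP2sh1, by 0.29, 0.49 and 0.67 (edgeR adjusted p = 0.004, 6.8e-07 and 3.2e-08). The interaction called 10 of 41 histone genes with a more negative difference at day +2, where 2.88% of all genes were, and 0 with a more positive one, and for HIST1H1C it was −1.37 (edgeR adjusted p = 4.1e-11). Among 50 writers, erasers and chaperones of the H3 tail, 10 fell and 2 rose. The H3K4 demethylase KDM5B fell from 109 ± 0.761 to 85.3 ± 3.56 CPM, the H3K9 methyltransferase EHMT2 from 128 ± 5.47 to 102 ± 7.21 CPM, and H3F3A, which encodes the replacement variant H3.3, from 259 ± 10.7 to 211 ± 7.15 CPM (log2 fold changes −0.35, −0.34 and −0.30, edgeR adjusted p = 4.8e-05, 1.7e-04 and 1.3e-04). HDAC4 rose by 0.68 from 5.11 ± 1.14 CPM. The higher members of this list numbered 1 without control replicate 2, control replicate 3 or MMP2sh1 replicate 2, with the replicate number as a block and by edgeR on all 27 libraries and 4 without control replicate 1. At day −2 the list had 13 lower and 2 higher of 50, beside 6.14% and 5.42% of all genes. At day 0 it had 17 lower and 3 higher, beside 8.58% and 8.26%. In MMP2sh2 at day +2 it had 0 lower and 1 higher of 50, beside 3.43% and 2.89%.

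Genes of the translation and respiratory machinery differed by small amounts that depended on single libraries. Of 87 cytosolic ribosomal protein genes, 27 were lower and 0 higher, with a median of −0.11. RPS28 went from 476 ± 35.8 to 333 ± 20.8 CPM and RPS15 from 692 ± 59.8 to 555 ± 10.7 CPM (log2 fold changes −0.52 and −0.32, edgeR adjusted p = 6.3e-08 and 6.2e-05). Lower ribosomal protein genes numbered 12 without control replicate 2, 14 without MMP2sh1 replicate 2, 16 without control replicate 3 or MMP2sh1 replicate 3 and with the replicate number as a block and 52 without MMP2sh1 replicate 1, and the median was −0.18 without MMP2sh1 replicate 1. Of 62 nuclear genes of the respiratory chain, 15 were lower and 0 higher, with a median of −0.09. Their count of lower members was 1 without control replicate 2, 4 without MMP2sh1 replicate 2, 5 without control replicate 3, 7 without MMP2sh1 replicate 3 and 26 without MMP2sh1 replicate 1, and their median was −0.06 without control replicate 2 and −0.17 without MMP2sh1 replicate 1. Mitochondrially encoded mRNAs were called higher in 10 of 13 genes, with a median of 0.21. The higher mitochondrial share of counts in MMP2sh1 libraries given above includes these same genes and is not a separate observation. MT-ND4 was at 5156, 4235 and 4824 CPM in the control and at 5590.1, 6291 and 5456 CPM in MMP2sh1, and MT-CYB went from 3059 ± 217 to 3709.9 ± 185 CPM (log2 fold changes 0.28 and 0.28, edgeR adjusted p = 5.2e-04 and 1.6e-04). MT-CO1 and MT-CO3 had overlapping groups and log2 fold changes of 0.21 and 0.18. The count of higher mRNAs was 0 by edgeR or DESeq2 on all 27 libraries, 4 without control replicate 2, 5 by DESeq2 on the same libraries and 6 without MMP2sh1 replicate 2, and 1 was lower without MMP2sh1 replicate 1. The mitochondrial ribosomal RNA MT-RNR2, which is not in that list, rose from 11203 ± 385 to 13896 ± 130.5 CPM (log2 fold change 0.31, edgeR adjusted p = 6.3e-07) and was called in every alternative.

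The protocadherin beta genes, adhesion molecules encoded in a cluster on chromosome 5, were lower in 8 of 18 tested members and higher in 0, with a median of −0.33 at day +2, −0.96 at day −2 and −0.89 at day 0. PCDHB16 was at 14.1, 11.1 and 10.4 CPM in the control libraries and at 6.52, 8.95 and 7.25 CPM in the MMP2sh1 libraries. No MMP2sh1 library reached the control range (log2 fold change −0.64, standard error 0.14, edgeR adjusted p = 0.001). The count of lower members was 2 by edgeR or DESeq2 on all 27 libraries, 3 without MMP2sh1 replicate 3 and 5 without control replicate 1, control replicate 2 or MMP2sh1 replicate 2. The alpha and gamma protocadherins of the same region had 0 higher and 0 lower of 32 by edgeR at day +2 (median −0.10), with 1 lower without MMP2sh1 replicate 1 or MMP2sh1 replicate 2 and 1 higher with at least 10 counts required in every library. On the earlier days they were lower too. They had 2 lower and 0 higher of 33 at day −2 (median −0.35), beside 6.14% lower of all genes. At day 0 they had 10 lower and 0 higher of 33 (median −0.73), beside 8.58% lower. PFDN1, which lies on chromosome 5 of GRCh37 from 139624620 to 139682698 on the minus strand and encodes a subunit of the prefoldin chaperone, was at 45.5, 41.4 and 44.01 CPM in the control and at 23.8, 21.9 and 24.4 CPM in MMP2sh1 (log2 fold change −0.90, standard error 0.08, edgeR adjusted p = 4.4e-10). The same contrast gave −1.06 at day −2 and −0.995 at day 0. It was the only one of 6 prefoldin subunits called, except that the lower ones numbered 2 without control replicate 1 or MMP2sh1 replicate 1.

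Of 466 zinc finger genes named ZNF and a number, 43 were lower and 15 higher, beside 7.11% lower and 7.68% higher of all tested genes, with a median of −0.11. ZNF503 fell from 40.5 ± 1.33 to 18.6 ± 0.769 CPM and ZNF703 from 74.4 ± 3.74 to 55.3 ± 4.56 CPM, and ZNF512B rose from 11.8 ± 1.199 to 18.1 ± 2.04 CPM (log2 fold changes −1.13, −0.43 and 0.61, edgeR adjusted p = 8.3e-12, 2.7e-05 and 1.1e-04). The higher ones numbered 7 without control replicate 2 or control replicate 3, 8 without MMP2sh1 replicate 3 and 9 without MMP2sh1 replicate 2 and with the replicate number as a block, and the lower ones 28 with the replicate number as a block. Lysosomal genes had 3 higher and 6 lower of 43, beside 7.68% higher and 7.11% lower of all tested genes. The sulfatase IDS went from 259 ± 8.57 to 344 ± 26.3 CPM and the galactosidase GALC from 79.3 ± 2.67 to 64.5 ± 1.68 CPM (log2 fold changes 0.41 and −0.30, edgeR adjusted p = 3.3e-06 and 7.1e-04). The RNA interference machinery, on which an shRNA depends, had 4 higher and 0 lower of 13. In MMP2sh2 at day +2 it had 0 higher and 0 lower of 13, beside 2.89% and 3.43% of all tested genes. In MMP2sh1 it had 0 higher and 1 lower at day −2, beside 5.42% and 6.14% of all genes. At day 0 it had 1 of each, beside 8.26% and 8.58%. Counts of 0 or 1 among 13 genes are near these shares. AGO2, the Argonaute that cuts target RNA, rose from 125 ± 2.13 to 149 ± 9.43 CPM and DICER1 from 51.9 ± 4.67 to 64.2 ± 3.64 CPM (log2 fold changes 0.25 and 0.31, edgeR adjusted p = 0.002 and 0.003). In the Notch pathway, LFNG was called higher (0.39, edgeR adjusted p = 2.0e-06) and NOTCH3 lower (−0.21, edgeR adjusted p = 0.03) of 18 genes. These 2 calls are no more than the shares of 7.68% and 7.11% over all tested genes. The higher Notch genes numbered 2 without control replicate 1 or control replicate 2 and by edgeR or DESeq2 on all 27 libraries and 3 without MMP2sh1 replicate 1, and the lower ones 0 without control replicate 1 or control replicate 3, with the replicate number as a block and by edgeR or DESeq2 on all 27 libraries and 2 without MMP2sh1 replicate 2.

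The 3 days were set beside each other to see which differences preceded overconfluence. Of 17996 genes tested at days −2 and +2, 2778 were called at day +2 and 2156 at day −2, and 714 were called at both, which is 25.7% of the first and 33.1% of the second set, 583 of them with the same sign. Of 18513 genes tested at days 0 and +2, 1238 were called at both, 44.1% of the day +2 calls and 38.2% of the day 0 calls, 1151 of them with the same sign. These days share no library. The plot of levels over days shows several courses. MMP2, COL3A1 and PFDN1 were lower in MMP2sh1 on all 3 days, with day −2 levels of 41.3 ± 1.10 against 11.9 ± 2.29 CPM for COL3A1 and 93.6 ± 0.715 against 45.1 ± 3.33 CPM for PFDN1. F13A1 rose late in both lines. It was at 2.99 ± 0.442 CPM in the control and 1.58 ± 0.284 CPM in MMP2sh1 at day −2, at 4.47 ± 0.299 and 4.63 ± 0.337 CPM at day 0, and at 49.4 ± 7.58 and 162 ± 7.79 CPM at day +2, with an interaction of 2.64 (edgeR adjusted p = 3.2e-11). MMP14 reversed, from −0.40 at day −2 and −0.36 at day 0 to 0.24 at day +2, with an interaction of 0.64 (edgeR adjusted p = 5.7e-05).

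Among genes called in the interaction and at day +2, glutamine synthetase GLUL had one of the largest falls. GLUL was at 21.3, 19.5 and 19.8 CPM in the control libraries and at 5.88, 8.54 and 5.94 CPM in the MMP2sh1 libraries. The MMP2sh1 libraries were all below the control libraries (log2 fold change −1.58, standard error 0.12, edgeR adjusted p = 1.0e-10), while at day −2 the levels were 9.32 ± 0.357 and 11.2 ± 0.661 CPM, and the interaction was −1.84 (edgeR adjusted p = 1.8e-08). RGS16, a regulator of G protein signalling, and the long noncoding RNA MIAT went the other way. They were lower in MMP2sh1 at day −2, by −0.73 and −1.23, and higher at day +2, by 1.34 and 0.66, with interactions of 2.07 (edgeR adjusted p = 1.5e-09) and 1.88 (edgeR adjusted p = 4.8e-11). PRSS1 was called as well (3.93, edgeR adjusted p = 0.01), from few reads at day −2, where it was at 0.0656 ± 0.0695 CPM in the control and 0.0216 ± 0.0373 CPM in MMP2sh1, so the size of its value depends on the prior count of the fit. PCK1 was also called, but both groups were at or below 3 counts per library at day −2, so no value is given for it. In all, 931 genes were called both at day +2 and in the interaction.

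**Figure D3:**
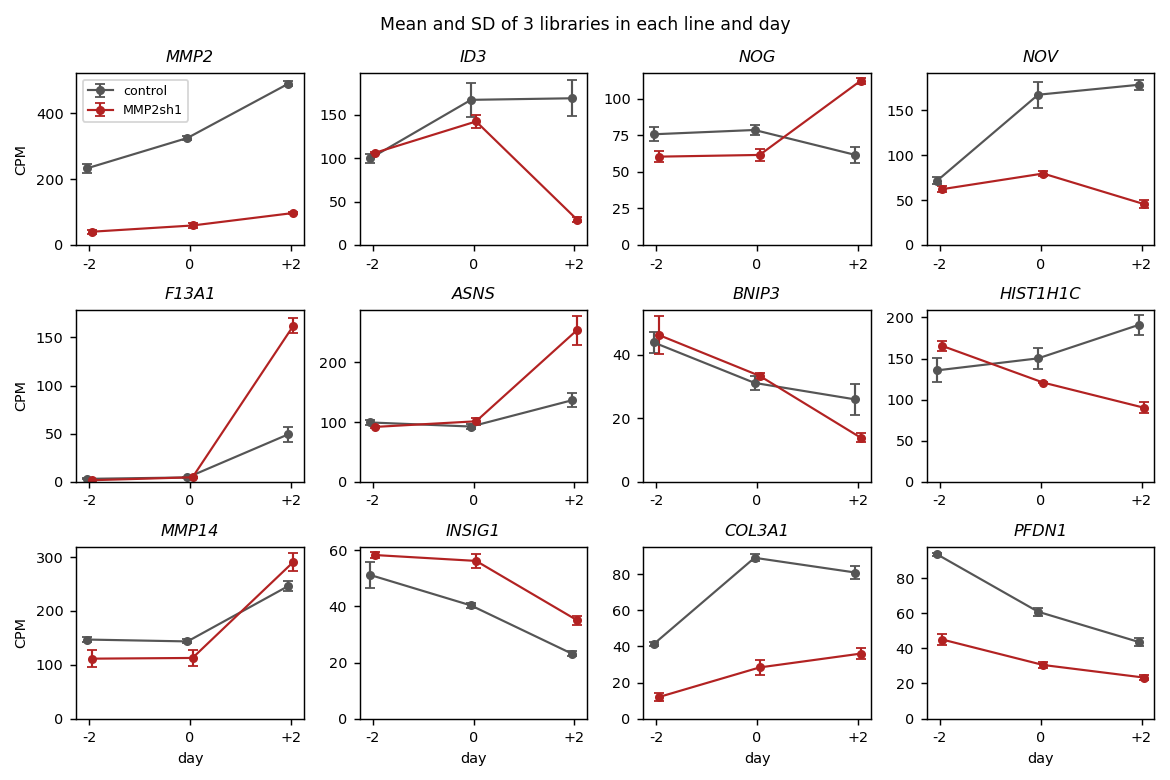
Mean level in CPM (y axis, from 0) with SD of 3 libraries on days −2, 0 and +2 in the control (grey) and MMP2sh1 (red) for 12 genes. The lines for MMP2, COL3A1 and PFDN1 are apart on every day, those for ID3, F13A1, ASNS and BNIP3 separate at day +2, and those for NOG, HIST1H1C and MMP14 cross.

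The second hairpin gives another depletion of the same gene. In MMP2sh2 at day +2, MMP2 was at 278, 291 and 266 CPM, between control and MMP2sh1 (log2 fold change −0.82, edgeR adjusted p = 5.0e-16), and MMP2sh1 minus MMP2sh2 was −1.52 (standard error 0.06, edgeR adjusted p = 1.3e-14). Both hairpin lines share 1 set of 3 control libraries, so a control library that stands apart moves both values, and they are given side by side. The depletion itself differed between the lines. For the ID genes the values were −2.53 and −1.89 for ID3, −1.77 and −1.57 for ID1 and −1.93 and −1.50 for ID4 in MMP2sh1 and MMP2sh2. Tested directly between the hairpins, ID3 differed by −0.64 (edgeR adjusted p = 1.2e-04), while the differences of ID1 (−0.20, edgeR adjusted p = 0.12) and ID4 (−0.43, edgeR adjusted p = 0.21) did not pass. NOG was 0.86 and 0.78, SMAD6 −0.98 and −0.82, HK2 −0.77 and −0.88 and CHAC1 1.21 and 1.13, and none of these 4 genes passed the direct test.

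By list, the hypoxia genes had 22 lower members in MMP2sh1 and 21 in MMP2sh2 (3.43% of all genes were called lower there), with medians of −0.28 and −0.33. The cholesterol enzymes had 12 and 10 higher members (2.89% of all genes in MMP2sh2), with medians of 0.32 and 0.24, and the ATF4 list 19 and 14, with medians of 0.17 and 0.06. The histone genes had 10 lower members in MMP2sh1 and 2 in MMP2sh2, with medians of −0.59 and −0.03. The direct test called 12 of 37 histone genes lower in MMP2sh1 than in MMP2sh2, where 3.27% of all genes were. Other lists were also unlike between the lines. Integrins had 8 higher and 0 lower members in MMP2sh1 but 3 and 3 in MMP2sh2. CDK inhibitors and p53 targets had 0 and 10 but 3 and 2, and protocadherin beta genes 0 and 8 but 1 and 1. Ribosomal protein genes had 27 lower members in MMP2sh1 and 25 in MMP2sh2, and fatty acid genes 10 and 6 higher ones.

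Several of the most marked differences in MMP2sh1 were not called in MMP2sh2, and for the 5 named next the direct test between the hairpins was passed. HIST1H1C was at 212, 211 and 208 CPM in the MMP2sh2 libraries, above every control library, and MMP2sh1 minus MMP2sh2 was −1.23 (edgeR adjusted p = 2.8e-12). PFDN1, at 43.0, 45.1 and 50.6 CPM in MMP2sh2, differed by −0.99 (edgeR adjusted p = 9.5e-09) and GLUL by −1.44 (edgeR adjusted p = 4.3e-08). Among genes higher in MMP2sh1, ITGB3 was at 41.7, 40.4 and 38.5 CPM and TNFRSF11B at 109.9, 114 and 130.1 CPM in MMP2sh2, with differences of 0.89 (edgeR adjusted p = 2.3e-09) and 1.04 (edgeR adjusted p = 2.4e-10). MMP9 (1.75 and 0.44), F13A1 (1.72 and 0.45), ASNS (0.89 and 0.38) and SLC7A11 (1.15 and 0.58) were higher in both lines, and their differences between the hairpins were 1.31, 1.27, 0.51 and 0.56 (edgeR adjusted p = 8.7e-09, 6.3e-12, 7.3e-06 and 3.4e-05). TGFBI was the higher one in MMP2sh2, at 0.72 and 0.95, with a difference of −0.24 (edgeR adjusted p = 0.02). Depth of depletion and other properties of the lines cannot be told apart in these values.

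**Figure D4:**
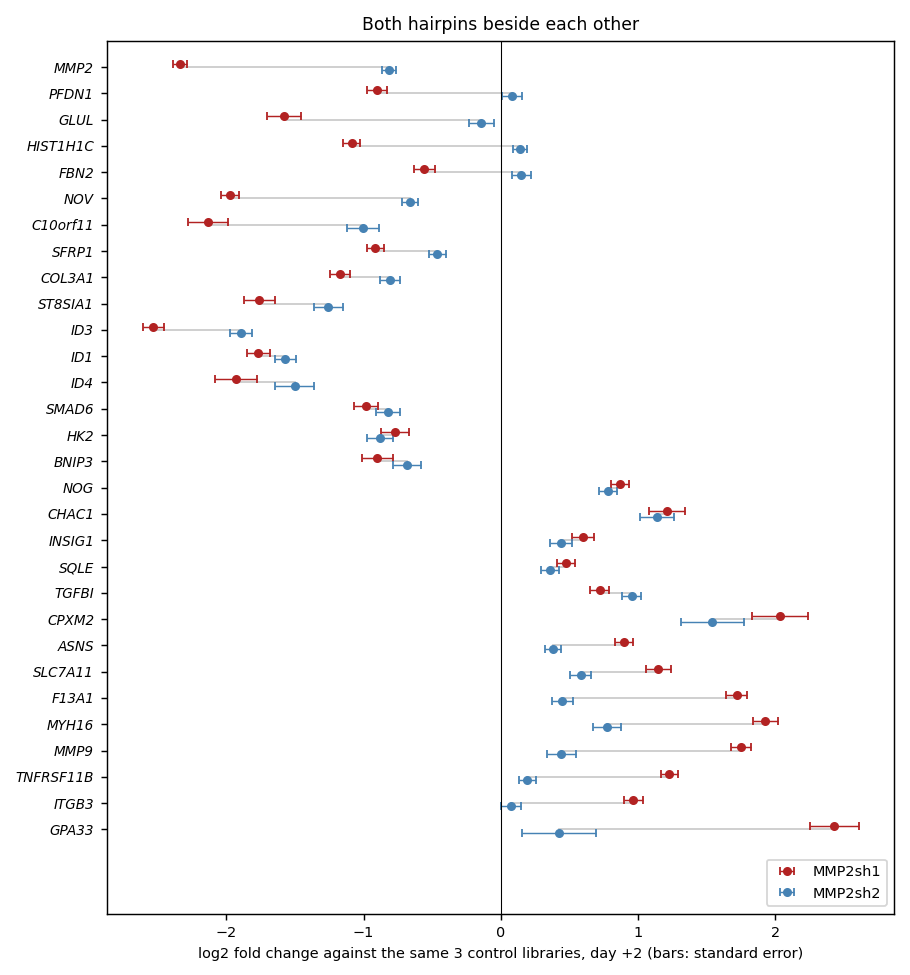
Log2 fold change against the same 3 control libraries at day +2 (x axis) of 30 genes in MMP2sh1 (red) and MMP2sh2 (blue), with standard errors as bars. The values lie close for ID1, SMAD6, HK2, NOG and CHAC1 and far apart for MMP2, PFDN1, GLUL, HIST1H1C, MMP9, ITGB3 and GPA33.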

How the data were processed

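Before deposit, the authors ran Trim Galore 0.6.0 on the reads and STAR 2.7.3a against hg19, filtered the alignments (Samtools) and assigned reads to exons with HTSeq 2.0.0, without regard to strand and with reads on several genes discarded. The deposited values are whole-number counts for each gene symbol and are not normalized. Lines that name no gene held 17.8% to 18.7% of the total in the 6 libraries and stayed out of every step. Counts of overlapping, antisense and near-identical genes are uncertain.

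Groups were taken from the labels. Comparisons were fitted separately in edgeR 4.0.16 under R 4.3.3, each on the libraries it names (TMM, filterByExpr with a minimum count of 10 and minimum total of 15, glmQLFit and glmQLFTest), and genes with a Benjamini-Hochberg adjusted p under 0.05 were called. The study used DESeq2, which was run here as an alternative (version 1.42.0). The standard error is the size of the log2 fold change divided by the square root of F. The scripts were tested on simulated data.

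The genes named are MMP2 and CTSB, the 12 largest falls and 12 largest rises in log2 fold change with at least 5 CPM in a group and no overlap, the 5 largest changes of each sign in CPM and in the interaction, and up to 6 called members of each list by p. Members outside this rule, named to complete a small count or family or as members that were not called, were chosen after their values were seen. The lists and rules were chosen with earlier results of these data known. The TPM values and ChIP-Seq data of the study were not used here, and a few members of the lists are not reported here.

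The alternatives were scaling by median of ratios, the low-count filter removed, a minimum of 10 counts in each library, DESeq2 on the same libraries, edgeR or DESeq2 on all 27 libraries, the replicate number as a block and each library left out in turn. Gene positions are from GENCODE on GRCh37, and promoter windows from RefSeq on GRCh38.p14 were matched by symbol. Figures were drawn with matplotlib 3.10.9.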

Additional observations from a re-analysis of the deposited data

Results flagged for a closer look

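Of the results above, those singled out here had a difference between MMP2sh1 and control that was another at day +2 than at day −2 by the test of the line by day interaction, which called 1520 of 20548 genes. Of 161 genes named with values, 90 besides PCK1 were called in it, 36 with a more negative and 54 with a more positive difference at day +2. PCK1 was called too but is left out of these counts for its few reads at day −2. Most of the 161 were named for a call at day +2, and some for a large interaction. The interaction uses the same libraries of day +2, so this share cannot be set against that of all genes. Their interaction log2 fold changes (day +2 minus day −2) follow. Groups of 3 libraries are too small for the rule on single outlying libraries, so none was tested in that way.

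More negative differences at day +2 were found in the BMP group and its targets for ID3 (−2.62), ID4 (−2.30), ID1 (−1.93), ID2 (−0.58) and SMAD6 (−1.14). Among histone genes they were found for HIST1H1C (−1.37), HIST1H2AC (−1.35) and HIST1H2BK (−1.07). Genes of hypoxia and glycolysis with such a difference were BNIP3 (−0.97), ADM (−0.91), HK2 (−0.90), PFKFB4 (−0.79), CA12 (−0.65), ENO2 (−0.56) and P4HA1 (−0.45). Interferon-stimulated genes added IFIT1 (−0.99), ISG15 (−0.72) and IFITM3 (−0.44). Secreted proteins, receptors and their transducers were NOV (−1.77), GDF15 (−0.81), ACKR3 (−0.71), NOTUM (−0.67), IGFBP4 (−0.64), FZD4 (−0.62), SMAD3 (−0.53) and SFRP1 (−0.46). The remaining ones were GLUL (−1.84), DDIT4 (−0.93), ZNF503 (−0.47), HMOX1 (−0.44), RPS28 (−0.44), CTSF (−0.42), FTL (−0.41), ZNF703 (−0.33), RPS15 (−0.32) and NPC2 (−0.30).

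More positive differences at day +2 were found in the amino acid response for SLC7A11 (1.67), CHAC1 (1.40), ASNS (1.01), PSAT1 (0.93) and SLC7A5 (0.52). Lipid genes with such a difference were SQLE (0.49), INSIG1 (0.41), DHCR7 (0.41), SCD (0.39), MSMO1 (0.37), FADS2 (0.32) and HMGCS1 (0.31). Matrix and adhesion genes were ITGB3 (0.84), TNC (0.78), ITGB8 (0.71), LOXL4 (0.49), COL11A1 (0.41), CTGF (0.33), LAMB3 (0.29), TGFBI (0.29), ITGA3 (0.27), SPARC (0.23) and LTBP2 (0.39). Proteases and their neighbours or inhibitors were PRSS1 (3.93), LPCAT2 (1.78), A2M (0.94), MMP14 (0.64) and MMP9 (0.45). For LPCAT2, A2M, COL3A1 (0.62) and SOX2 (0.62) the difference was negative on both days and smaller at day +2. Signalling genes were GPR132 (2.701), RGS16 (2.07), NOG (1.19), CCL2 (1.17), BMPR1B (1.16), TNFRSF11B (1.00), LFNG (0.73), PTPN14 (0.71) and IGFBP7 (0.48). The others were F13A1 (2.64), MIAT (1.88), SCG5 (1.74), SH3TC2 (1.35), HDAC4 (1.26), MYH16 (1.23), ATP6V0A4 (1.08), CD46 (0.71), IDS (0.53), CLDN4 (0.50), MYLK (0.37), MKI67 (0.35), DICER1 (0.33), MT-RNR2 (0.30) and ZNF512B (0.49). MMP2 itself was not called in the interaction.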

How the results depend on the processing

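The count of called genes in MMP2sh1 against control at day +2 was 2854, and it was 2848 with median-of-ratios scaling, 2791 with no filter on low counts, 2982 with at least 10 counts in every library, 2827 by DESeq2 on the same libraries, and 2820 by edgeR and 3077 by DESeq2 on all 27 libraries. Without single libraries it was 1928 to 3182. The other counts without single libraries were 1321 to 2274 at day −2, 2268 to 2964 at day 0, 679 to 1440 for MMP2sh2 at day +2, 885 to 1625 between the hairpins and 934 to 1682 in the interaction, and no other alternative moved a count by more than 1.5 times. With a library left out, the group of 2 shares the spread estimated over both groups.

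The replicate number is shared between groups in the labels, and the main fits did not use it as a pairing. In none of the 5 comparisons of 3 against 3 libraries was every same-numbered correlation of deviations over 0.1. That bar cannot exclude a pairing of some libraries. Same-numbered libraries of control and MMP2sh1 at day +2 had correlations of −0.03, −0.02 and −0.01, and those of MMP2sh1 and MMP2sh2 0.04, 0.01 and 0.14, where not every library correlated best with its own number. With the replicate number as a block, the counts were 2126 at day +2 (2854 without the block), 1076 for MMP2sh2 (1222) and 1371 in the interaction (1520). The block gave more calls at day −2 (2597, 2184 without it), at day 0 (3450, 3290 without it) and between the hairpins (2113, 1527 without it). Of 245 genes chosen by the naming rule, 195 kept call and direction in every alternative run and 50 lost the call in at least 1, and none changed sign. Of 3181 recomputed values, 3030 kept the call and 151 lost it. Depth limits genes of a few CPM, where a library holds few reads, and the cause of the lost calls was not tested.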
